A study of Mus musculus with 15 samples.

Results

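Described here are genes of cholesterol synthesis, of its control by SREBP transcription factors, of sterol uptake and transport, of oxysterol formation and of sterol export in a mouse dendritic cell (DC) line. The list held 33 genes, and a gene was measured where an array probe set carried exactly that symbol in the platform annotation. Of the 33 genes, 30 had such a probe set, out of 19937 genes tested on the arrays. Acat2, Nr1h2 and Soat1 had none and are not analysed here. The 30 were 17 enzymes of the synthesis pathway, 5 genes of SREBP control (Srebf1, Srebf2, Scap, Insig1 and Insig2), 3 of sterol transport (Stard4, Npc1 and Npc2), the oxysterol enzyme gene Ch25h, the oxysterol receptor gene Nr1h3 and 3 target genes of that receptor (Abca1, Abcg1 and Mylip).

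Cells make cholesterol from acetyl-CoA through mevalonate and squalene. SREBP proteins, carried by SCAP and held back by INSIG proteins when sterols are plentiful, switch on the genes of the pathway and of lipoprotein uptake. Oxysterols such as the product of CH25H, a hydroxylase known to be induced in macrophages and DCs by microbial signals and interferon, promote INSIG retention of SREBP and activate LXR receptors, which in turn switch on the export pumps ABCA1 and ABCG1 and the ubiquitin ligase MYLIP.

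The D1 cells are a single line of C57BL/6 mouse splenic DCs kept in long-term culture with growth factors. There were 5 groups of 3 arrays each. Apart from the nontreated group, the cells had been exposed for 2 h or 4 h either to curdlan or to curdlan together with FK506. Curdlan, a beta-glucan that binds dectin-1, was used at 10 µg/ml in all 4 stimulated groups. FK506 blocks calcineurin, the phosphatase that NFAT transcription factors need to reach the nucleus. FK506 without curdlan is not analysed here, and the same 3 nontreated arrays stood as the control at both times. A comparison with FK506 therefore reads its effect during curdlan, as the level with curdlan and FK506 minus the level with curdlan. Levels are log2 RMA values, in which 1 unit is a doubling, and a gene passed the test at a limma adjusted p under 0.05 with a fold of at least 1.5. Each array held the RNA of a whole culture, so a change in the share of cells that express a gene and a change per cell cannot be told apart.

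The DC markers Itgax (12.08), H2-Ab1 (12.80), Cd74 (12.73) and Clec7a (10.41, the dectin-1 gene) were high in nontreated cells, whereas Flt3, a marker of conventional DCs, was low (5.93). The macrophage markers Csf1r (11.98), Adgre1 (11.67) and Cd68 (11.36) were high as well, so the cells carried markers of both kinds. These DC and macrophage markers were chosen from 10 and 6 measured, with their values in view. Markers of T cells (5 measured, 4.17 to 6.18), B cells (4 measured, 4.07 to 6.25) and hepatocytes (4 measured, 3.92 to 5.30) were low against a median gene level of 6.76. Levels of the 8 fibroblast markers measured are not given here. In the nontreated group replicate 1, and in the curdlan 2 h group replicate 3, lay away from their fellow arrays, with limma array weights of 0.0781 and 0.119. Both were kept. Without them 5 of the 8 counts of sterol genes that passed stayed as they were and 3 moved by 1 gene, given beside the count. None of the 30 genes had a mean below the lower quartile of gene means (5.28).

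The promoter sequences of Ch25h, of the 4 genes of synthesis or SREBP control that fell most among those called with curdlan for 4 h, and of Hmgcs1 are shown here because the changes of Ch25h and of the synthesis genes are the ones described most closely here. Each is the 250 bases before the first start listed by RefSeq (GRCm38.p6), 5′ to 3′ on the strand of the gene. Capitals mark matches on either strand to 5 motifs: the sterol regulatory element core TCACNCCAC, the CCAAT box CCAAT, the E-box CACGTG, the GC box GGGCGG and the NFAT core GGAAAA.
Ch25h, chr19:34475149-34475398, minus strand: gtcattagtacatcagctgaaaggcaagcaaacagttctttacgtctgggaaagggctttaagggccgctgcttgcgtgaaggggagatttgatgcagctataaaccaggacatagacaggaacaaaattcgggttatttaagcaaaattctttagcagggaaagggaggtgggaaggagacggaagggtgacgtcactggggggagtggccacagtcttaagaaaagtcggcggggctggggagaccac
Hmgcs1, chr13:119690101-119690350, plus strand: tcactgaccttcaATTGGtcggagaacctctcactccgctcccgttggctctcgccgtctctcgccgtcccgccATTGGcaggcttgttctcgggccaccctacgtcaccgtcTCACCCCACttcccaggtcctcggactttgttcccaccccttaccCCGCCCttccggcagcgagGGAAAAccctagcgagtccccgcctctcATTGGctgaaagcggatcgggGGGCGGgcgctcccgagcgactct
Lss, chr10:76531355-76531604, plus strand: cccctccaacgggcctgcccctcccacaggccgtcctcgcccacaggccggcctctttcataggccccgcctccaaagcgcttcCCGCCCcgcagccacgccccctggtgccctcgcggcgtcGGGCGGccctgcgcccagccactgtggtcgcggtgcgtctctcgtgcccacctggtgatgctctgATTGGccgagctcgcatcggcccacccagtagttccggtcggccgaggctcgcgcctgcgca
Mvk, chr5:114444019-114444268, plus strand: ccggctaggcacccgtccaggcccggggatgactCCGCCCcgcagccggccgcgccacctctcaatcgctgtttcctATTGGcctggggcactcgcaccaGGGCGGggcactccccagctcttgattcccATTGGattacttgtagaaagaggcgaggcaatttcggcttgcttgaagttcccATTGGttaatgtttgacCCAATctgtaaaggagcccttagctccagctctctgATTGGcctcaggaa
Dhcr7, chr7:143822917-143823166, plus strand: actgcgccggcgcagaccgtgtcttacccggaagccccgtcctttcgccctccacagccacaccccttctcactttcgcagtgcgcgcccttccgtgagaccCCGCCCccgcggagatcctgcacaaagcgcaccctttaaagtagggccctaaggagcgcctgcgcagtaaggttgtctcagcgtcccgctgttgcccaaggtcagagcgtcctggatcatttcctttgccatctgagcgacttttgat
Srebf1, chr11:60222582-60222831, minus strand: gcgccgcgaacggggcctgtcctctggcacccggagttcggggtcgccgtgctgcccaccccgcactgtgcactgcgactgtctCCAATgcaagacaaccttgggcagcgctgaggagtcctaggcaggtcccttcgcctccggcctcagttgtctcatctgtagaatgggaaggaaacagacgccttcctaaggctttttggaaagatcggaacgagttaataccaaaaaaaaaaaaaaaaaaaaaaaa

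Hmgcs1 was added to this set after its values were seen, and its window held a sterol regulatory element core, 3 CCAAT boxes, 2 GC boxes and 1 NFAT core. No printed match overlapped another. The Ch25h window held none of the 5 motifs, which says only that these letters are not within it. Dhcr7 and Srebf1 have 3 listed starts each, and the first of them is printed. Across all starts of a gene, 14 of 14 synthesis enzymes with a promoter entry held a CCAAT box, against 37.5% of 27025 genes. A GC box stood in 13 of 14, against 35.4% of genes, an NFAT core in 5 of 14, against 22.9%, and an E-box in 3 of 14, against 6.86%. The sterol regulatory element core stood in 1 of 14 (Hmgcs1), against 1.22% of genes. These shares are descriptions of letters in a window and were given no test.

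Ch25h rose 6.07-fold after 2 h of curdlan and 2.85-fold after 4 h, and with FK506 it was 6.46-fold and 5.17-fold lower. Among the 17 synthesis enzymes, 0 passed in limma after 2 h of curdlan, beside 3.60% of all genes. An unadjusted p under 0.05 was found in 10 of the 17, and in 5593 of all 19937 genes. After 4 h 3 of the 17 enzymes fell and 0 rose, beside 4.15% of all genes called lower. With FK506 at 4 h 5 were higher than with curdlan alone, beside 0.211% of all genes called higher. Of the export pump genes, Abcg1 fell with curdlan at both times, and Abca1 rose at 2 h and did not pass at 4 h.

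After 2 h of curdlan, 3 of 30 genes passed the test (Ch25h and Abca1 higher, Abcg1 lower), beside 3.60% of all genes. After 4 h it was 7 of 30 (Ch25h higher, and Dhcr7, Lss, Abcg1, Stard4, Srebf1 and Mvk lower), beside 9.20% of all genes, and the 6 lower genes stood beside 4.15% of genes called lower. From 2 h to 4 h of curdlan 7 of 30 fell (Ch25h, Hmgcs1, Stard4, Insig1, Abca1, Dhcr7 and Lss) and 0 rose, beside 4.09% of all genes called and 1.30% called lower. The 7 became 8 without both outlying arrays, with Msmo1 added at −0.60. The median difference of all genes was −0.12 after 4 h of curdlan, and with each array centred on its median the 4 h count was 6, with Mvk lost.

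With FK506 at 2 h, 2 of 30 genes passed (Ch25h and Abca1, both lower), beside 1.12% of all genes. At 4 h with FK506 7 of 30 passed, beside 1.75% of all genes, and of these 6 were higher (Hmgcs1, Lss, Insig1, Msmo1, Dhcr7 and Sc5d) and 1 was lower (Ch25h). Only 0.211% of all genes, 42 of 19937, were called higher in that comparison, and 1.53% were called lower. The curdlan 4 h arrays entered both this comparison and the one against nontreated cells, with opposite signs, so the 2 are not independent. The change of the FK506 effect from 2 h to 4 h passed in 1 of 30 genes (Abca1), beside 1.23% of all genes, and in 2 without both outlying arrays (Stard4 added at 0.59).

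**Figure D1:**
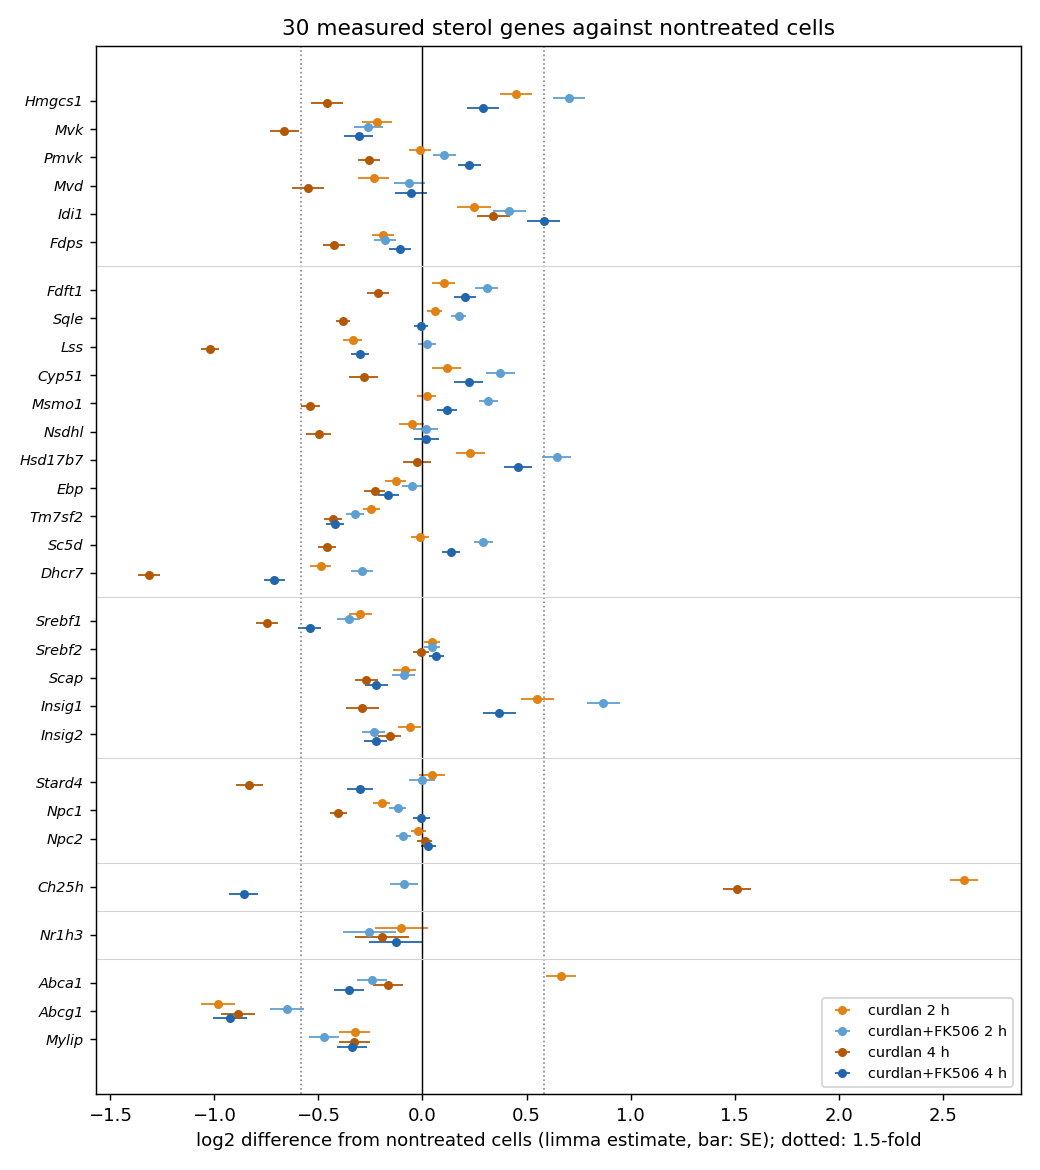
Log2 difference from nontreated cells (horizontal axis, limma estimate with its SE, 3 arrays per group) for each of the 30 measured genes, listed by role, with curdlan in orange tones and curdlan with FK506 in blue tones; dotted lines mark a fold of 1.5. Ch25h lies far to the right with curdlan at both times (2.60 and 1.51), while for 16 of 17 synthesis enzymes the curdlan 4 h point lies furthest left. Of all 19937 genes tested, 14059 had a negative difference from nontreated cells with curdlan for 4 h. The share of all genes lowest in that group is not given here.

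The first 6 synthesis enzymes lead from acetoacetyl-CoA to farnesyl diphosphate. Hmgcs1 makes HMG-CoA, the precursor of mevalonate. Hmgcs1 was at 10.10, 10.43 and 10.44 on the nontreated arrays, 10.77, 10.79 and 10.75 with curdlan for 2 h and 9.90, 9.87 and 9.82 with curdlan for 4 h. Hmgcs1 with FK506 was at 11.05, 10.94 and 11.09 at 2 h and 10.62, 10.64 and 10.57 at 4 h. Its 3 curdlan 4 h values lay below every other array, and its FK506 2 h values lay above every other array. From 2 h to 4 h of curdlan Hmgcs1 fell by 0.91 on the log2 scale (SE 0.08, n = 3 per group, limma adjusted p = 1.04e-06). Against nontreated cells the differences were 0.45 ± 0.08 at 2 h and −0.46 ± 0.08 at 4 h, neither of which reached the fold threshold. Hmgcs1 at 4 h was 1.68-fold higher with FK506 than with curdlan alone (0.75 ± 0.08, SE, limma adjusted p = 1.64e-05).

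Mvk phosphorylates mevalonate. Mvk was at 8.72, 8.54 and 8.66 on the nontreated arrays, 8.31, 8.37 and 8.60 with curdlan for 2 h and 7.97, 7.99 and 7.97 with curdlan for 4 h. Mvk with FK506 was at 8.29, 8.44 and 8.42 at 2 h and 8.37, 8.30 and 8.34 at 4 h. The curdlan 4 h values lay below those of all other groups. Mvk fell by 0.66 (SE 0.07, limma adjusted p = 4.41e-06) after 4 h of curdlan, a call that was lost in 3 alternative settings at −0.44 to −0.58. Its difference with FK506 at 4 h was 0.36 ± 0.07, with groups that did not overlap but a fold under the threshold.

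The next 4 enzymes passed in no comparison. Pmvk and Mvd complete the conversion to isopentenyl diphosphate, and their group means (nontreated, curdlan 2 h, curdlan 4 h, FK506 2 h, FK506 4 h) were 7.60, 7.59, 7.34, 7.71 and 7.83 for Pmvk and 8.52, 8.28, 7.97, 8.45 and 8.46 for Mvd. Fdps, which joins the units into farnesyl diphosphate, had means of 10.91, 10.73, 10.49, 10.73 and 10.80 in the same order. All 3 were lowest with curdlan for 4 h, by −0.26, −0.55 and −0.42 against nontreated cells, without overlap.

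Idi1, the isomerase of isopentenyl diphosphate, was the exception among the 17 enzymes, with its lowest level in nontreated cells. Its means in the same order were 10.59, 10.83, 10.93, 11.01 and 11.17. The gene has 2 probe sets with this symbol, and they disagreed. The other probe set had means of 10.75, 10.73, 10.32, 10.62 and 10.67, with the lowest value after 4 h of curdlan, as in the other 16 enzymes. How many of all genes were lowest in that group is not given here. The direction of Idi1 with curdlan is therefore not settled by these arrays, and with the probe set used it passed in no comparison.

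The other 11 enzymes lead from farnesyl diphosphate through squalene to cholesterol. Lss closes the ring system and gives lanosterol. Lss was at 9.60, 9.71 and 9.66 on the nontreated arrays, 9.30, 9.32 and 9.35 with curdlan for 2 h and 8.61, 8.63 and 8.67 with curdlan for 4 h. Lss with FK506 was at 9.64, 9.69 and 9.71 at 2 h and 9.41, 9.30 and 9.36 at 4 h. The curdlan 4 h values lay below all other arrays. Lss fell 2.03-fold after 4 h of curdlan (−1.02 ± 0.04, SE, n = 3 per group, limma adjusted p = 4.38e-10), after a difference of −0.34 ± 0.04 at 2 h. With FK506 it was 1.65-fold higher at 4 h (0.72 ± 0.04, limma adjusted p = 1.11e-07), and 0.36 ± 0.04 higher at 2 h, under the fold threshold.

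Dhcr7 catalyses the last reduction to cholesterol and had the largest fall of the 17 enzymes after 4 h of curdlan. Dhcr7 was at 8.94, 9.03 and 9.08 on the nontreated arrays, 8.51, 8.57 and 8.51 with curdlan for 2 h and 7.62, 7.77 and 7.72 with curdlan for 4 h. Dhcr7 with FK506 was at 8.66, 8.75 and 8.77 at 2 h and 8.35, 8.27 and 8.30 at 4 h. No curdlan 4 h value overlapped any other group, and the FK506 4 h values lay between the curdlan and nontreated values. Dhcr7 fell 2.48-fold after 4 h of curdlan (−1.31 ± 0.05, limma adjusted p = 1.83e-10). It was 1.52-fold higher with FK506 at 4 h (0.60 ± 0.05, limma adjusted p = 3.02e-06), close enough to the fold threshold that without curdlan 4 h replicate 1 or FK506 4 h replicate 1 it was 0.56 or 0.58 and no longer passed. It stayed below nontreated cells with FK506 at 4 h (−0.71 ± 0.05, limma adjusted p = 1.57e-07), the only enzyme of the 17 that passed in that comparison.

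Msmo1 and Sc5d are oxidases of the later steps, the first acting on methylsterols and the second a desaturase. Msmo1 was at 10.90, 11.02 and 10.97 on the nontreated arrays, 11.05, 11.00 and 10.90 with curdlan for 2 h and 10.41, 10.41 and 10.45 with curdlan for 4 h. Msmo1 with FK506 was at 11.26, 11.28 and 11.30 at 2 h and 11.06, 11.12 and 11.07 at 4 h. Sc5d was at 9.97, 10.05 and 10.12 on the nontreated arrays, 10.07, 10.04 and 9.99 with curdlan for 2 h and 9.57, 9.63 and 9.56 with curdlan for 4 h. Sc5d with FK506 was at 10.33, 10.34 and 10.34 at 2 h and 10.20, 10.17 and 10.17 at 4 h. Both genes were lowest with curdlan for 4 h and highest with FK506 for 2 h, without overlap with any other group. At 4 h both were higher with FK506 than with curdlan, Msmo1 by 0.66 ± 0.05 (limma adjusted p = 5.26e-07) and Sc5d by 0.59 ± 0.04 (limma adjusted p = 6.98e-07), the latter a call lost in 3 alternative settings at 0.56 to 0.58. After 4 h of curdlan they differed from nontreated cells by −0.54 and −0.46, under the fold threshold.

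Hsd17b7, a ketoreductase of the pathway, was lowest with curdlan for 4 h as well, by a small margin. Hsd17b7 was at 8.68, 8.92 and 8.93 on the nontreated arrays, 9.09, 9.10 and 9.04 with curdlan for 2 h and 8.85, 8.81 and 8.80 with curdlan for 4 h. Hsd17b7 with FK506 was at 9.46, 9.44 and 9.57 at 2 h and 9.39, 9.22 and 9.30 at 4 h. Both FK506 groups lay above all other arrays. Against nontreated cells Hsd17b7 rose with curdlan and FK506 for 2 h (0.64 ± 0.07, limma adjusted p = 1.4e-05), a call that was lost at 0.56 without nontreated replicate 1, which had the lowest value. Its differences with FK506 against curdlan were 0.41 at 2 h and 0.49 at 4 h, under the fold threshold.

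The remaining 6 enzymes passed in no comparison. In the order used above, the group means were 10.68, 10.78, 10.47, 10.99 and 10.89 for Fdft1 (squalene synthase), 10.75, 10.80, 10.36, 10.92 and 10.74 for Sqle (squalene epoxidase) and 10.49, 10.60, 10.20, 10.86 and 10.71 for Cyp51 (lanosterol demethylase). Each of these 3 was lowest with curdlan for 4 h and highest with FK506 for 2 h. Nsdhl, which removes methyl groups, had means of 9.54, 9.49, 9.04, 9.56 and 9.56, and its FK506 difference at 4 h was 0.52 ± 0.06. Ebp, an isomerase, and Tm7sf2, a sterol reductase, moved least with FK506 at 4 h (0.07 and 0.01), with means of 9.67, 9.55, 9.44, 9.63 and 9.51 and 8.74, 8.50, 8.31, 8.42 and 8.32. For Tm7sf2 all 4 stimulated groups lay below nontreated cells without overlap, with differences of −0.25 to −0.43.

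Taken over the 17 enzymes, the median log2 difference from nontreated cells was −0.01 after 2 h of curdlan and −0.43 after 4 h, where that of all genes was −0.04 and −0.12. After 4 h of curdlan the values of 15 of 17 lay below all nontreated values, a separation found in that direction in 33.5% of all genes. With FK506 at 4 h the median difference from curdlan was 0.49, beside 0.03 for all genes, and 16 of 17 lay above all curdlan values, beside 21.7% of all genes. At 2 h the corresponding median was 0.17, and 12 of 17 did not overlap, beside 16.2% of all genes. None of the 17 passed in limma at 2 h, where 10 had an unadjusted p under 0.05 and 7 an adjusted p under 0.05 with a fold below the threshold. All 7 were higher. Of all 19937 genes 1.12% were called there, 3906 had such an unadjusted p, and 893 were higher with an adjusted p under 0.05 at any fold.

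Per array, the median difference of the 17 enzymes from the nontreated means was −0.42, −0.40 and −0.47 with curdlan for 4 h and 0.02, 0.02 and 0.06 with curdlan and FK506 for 4 h. The median near 0 with FK506 at 4 h covered genes on both sides of it, since 8 of the 17 lay above all nontreated values and 6 below all of them, with Dhcr7 lowest at −0.71 and Idi1, with the probe set used, highest at 0.58. Of all 19937 genes, 2821 lay above all nontreated values in that comparison and 4597 below all of them. At 2 h the medians per array were 0.03, −0.05 and −0.05 with curdlan and 0.14, 0.07 and 0.11 with FK506. The nontreated arrays themselves stood at −0.07, 0.01 and 0.03. From 2 h to 4 h of curdlan the median difference was −0.40, beside −0.07 for all genes, and 15 of 17 lay below all 2 h values, beside 26.0% of all genes.

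**Figure D2:**
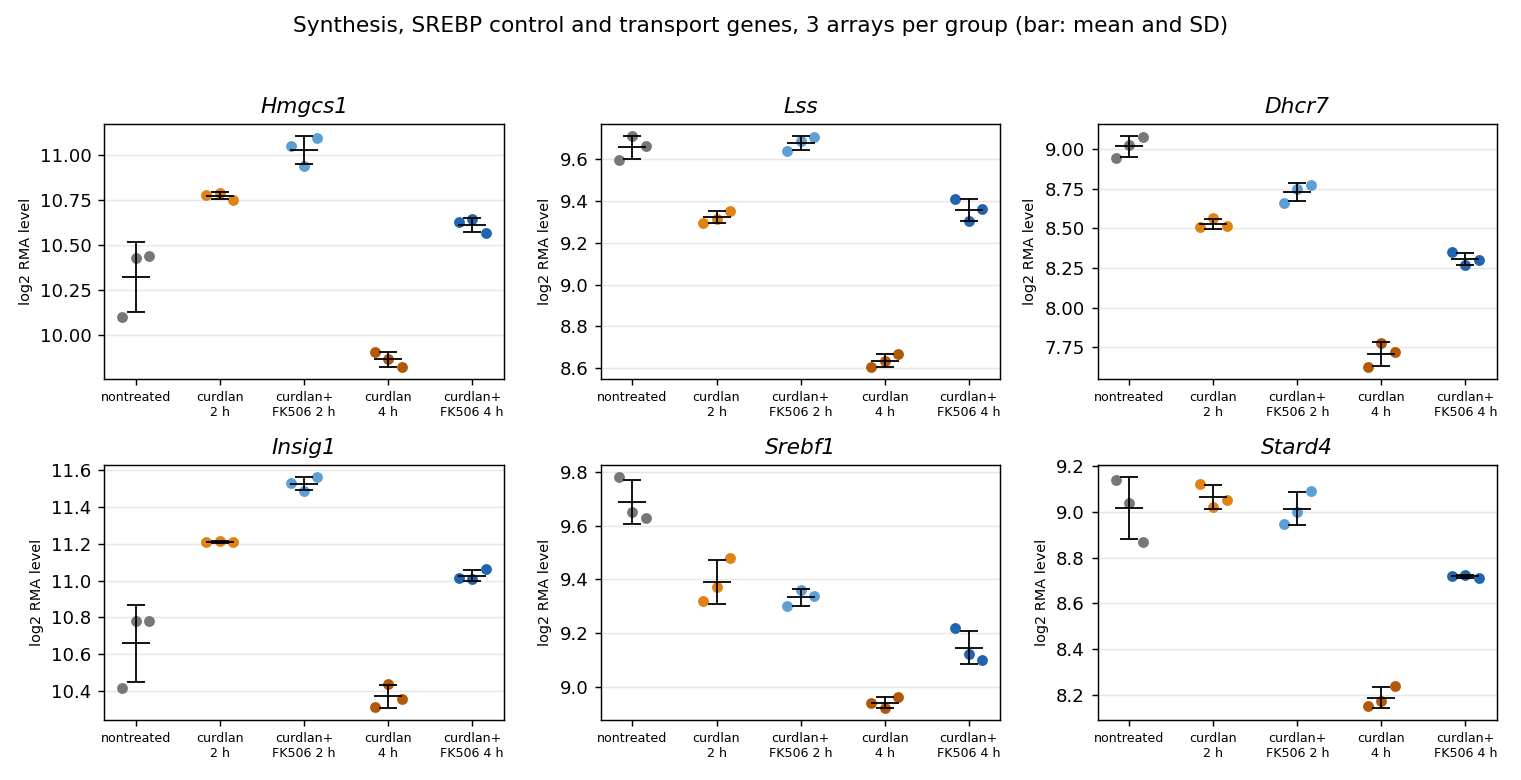
Log2 RMA level (vertical axis, each panel on its own scale) of 6 genes in the 5 groups; points are single arrays, 3 per group, and bars show the mean and SD. In each panel the 3 curdlan 4 h points are the lowest or, for Insig1, among the lowest, and the curdlan with FK506 4 h points lie above them.

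Among the genes of SREBP control, Srebf1, which encodes an SREBP that favours fatty acid genes, fell, whereas Srebf2, which encodes the SREBP that favours cholesterol genes, was level. Srebf1 was at 9.78, 9.65 and 9.63 on the nontreated arrays, 9.32, 9.37 and 9.48 with curdlan for 2 h and 8.94, 8.92 and 8.96 with curdlan for 4 h. Srebf1 with FK506 was at 9.30, 9.36 and 9.34 at 2 h and 9.22, 9.12 and 9.10 at 4 h. Every stimulated array lay below every nontreated array, and curdlan for 4 h gave the lowest values. Srebf1 fell 1.68-fold after 4 h of curdlan (−0.75 ± 0.05, limma adjusted p = 8.51e-08), a call lost with the mean level of unannotated probe sets as an array covariate at −0.57. At 4 h the difference of FK506 from curdlan was 0.20 ± 0.05, and the level was still −0.54 from nontreated cells, both under the fold threshold.

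Srebf2 was at 11.51, 11.54 and 11.53 on the nontreated arrays, 11.54, 11.55 and 11.62 with curdlan for 2 h and 11.52, 11.50 and 11.52 with curdlan for 4 h. Srebf2 with FK506 was at 11.56, 11.55 and 11.60 at 2 h and 11.63, 11.55 and 11.59 at 4 h. All 15 Srebf2 values lay within 11.50 to 11.63, and its differences ranged from −0.05 to 0.08 over the 8 comparisons. Scap, the carrier of SREBP, had group means of 9.88, 9.80, 9.61, 9.79 and 9.66 in the order nontreated, curdlan 2 h, curdlan 4 h, FK506 2 h and FK506 4 h, and passed in no comparison.

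Of the INSIG genes, Insig1 is itself a target of SREBP. Insig1 was at 10.42, 10.78 and 10.78 on the nontreated arrays, 11.21, 11.22 and 11.21 with curdlan for 2 h and 10.31, 10.44 and 10.36 with curdlan for 4 h. Insig1 with FK506 was at 11.53, 11.49 and 11.56 at 2 h and 11.01, 11.01 and 11.06 at 4 h. The FK506 2 h values were the highest, and the curdlan 4 h values overlapped only the lowest nontreated array, replicate 1. Insig1 fell from 2 h to 4 h of curdlan (−0.84 ± 0.08, limma adjusted p = 2.6e-06), and with FK506 at 4 h it was 1.58-fold higher than with curdlan (0.66 ± 0.08, limma adjusted p = 6.39e-05). Against nontreated cells it rose 1.83-fold with curdlan and FK506 for 2 h (0.87 ± 0.08, limma adjusted p = 3.5e-06), and stood at 0.55 ± 0.08 with curdlan for 2 h, just under the fold threshold. Insig2 had means of 9.45, 9.39, 9.29, 9.22 and 9.23 and passed in no comparison.

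Of the transport genes, Stard4 encodes a soluble sterol carrier and is an SREBP target. Stard4 was at 9.14, 9.04 and 8.87 on the nontreated arrays, 9.12, 9.02 and 9.05 with curdlan for 2 h and 8.15, 8.17 and 8.24 with curdlan for 4 h. Stard4 with FK506 was at 8.95, 9.0 and 9.09 at 2 h and 8.72, 8.72 and 8.71 at 4 h. Again the curdlan 4 h values lay below all other arrays. Stard4 fell 1.78-fold after 4 h of curdlan (−0.83 ± 0.06, limma adjusted p = 1.31e-07), and at 2 h the difference was 0.05 ± 0.06. With FK506 it differed from curdlan by −0.05 ± 0.06 at 2 h and 0.53 ± 0.06 at 4 h, and the difference between those was 0.58 ± 0.09 (limma adjusted p = 0.0017), a fold just under the threshold. Npc1 and Npc2 move cholesterol out of lysosomes, and their means were 10.91, 10.71, 10.51, 10.79 and 10.90 for Npc1 and 9.44, 9.42, 9.45, 9.35 and 9.47 for Npc2. Neither passed, and Npc1 was lowest with curdlan for 4 h (−0.40 against nontreated cells, 0.40 with FK506), while the differences of Npc2 ran from −0.09 to 0.09 over the 8 comparisons.

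Ch25h, the hydroxylase gene, had the largest changes of the 30 genes in 5 of the 8 comparisons. Ch25h was at 8.62, 8.88 and 8.83 on the nontreated arrays, 11.33, 11.34 and 11.47 with curdlan for 2 h and 10.27, 10.31 and 10.29 with curdlan for 4 h. Ch25h with FK506 was at 8.63, 8.71 and 8.73 at 2 h and 7.92, 8.0 and 7.84 at 4 h. Curdlan lifted every array far above the nontreated ones at both times, the FK506 2 h values fell within the nontreated range, and the FK506 4 h values lay below it. The rise was 2.60 ± 0.07 at 2 h (SE, n = 3 per group, limma adjusted p = 6.53e-12) and 1.51 ± 0.07 at 4 h (limma adjusted p = 7.47e-10), with a fall of 1.09 between the 2 times (limma adjusted p = 6.48e-08).

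FK506 lowered Ch25h against curdlan alone, with differences of −2.69 ± 0.07 at 2 h (SE, limma adjusted p = 3.5e-11) and −2.37 ± 0.07 at 4 h (SE, limma adjusted p = 8.95e-11). Against nontreated cells the level with FK506 differed by −0.09 ± 0.07 at 2 h (limma adjusted p = 0.36), and at 4 h Ch25h fell to 1.81-fold below it (−0.86 ± 0.07, limma adjusted p = 3.73e-07). In order of level the groups ran curdlan 2 h, curdlan 4 h, nontreated with FK506 2 h, and FK506 4 h, with the third pair not separated beyond its spread. The change of the FK506 effect between the times was 0.32 ± 0.10 and did not pass (limma adjusted p = 0.0905).

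**Figure D3:**
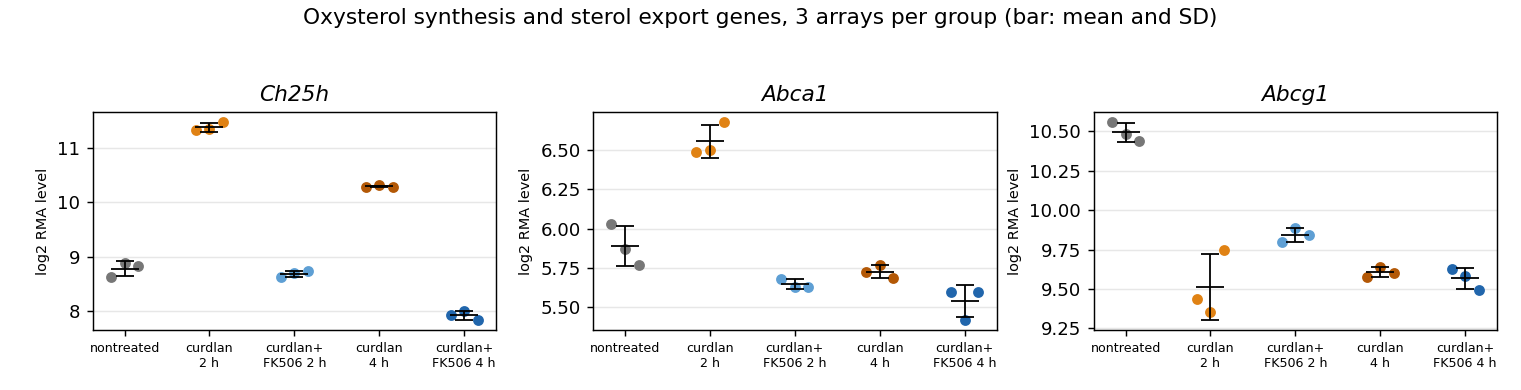
Log2 RMA level (vertical axis, each panel on its own scale) of Ch25h, Abca1 and Abcg1 in the 5 groups; points are single arrays, 3 per group, and bars show the mean and SD. Ch25h is raised in both curdlan groups and not with FK506, Abca1 is raised with curdlan for 2 h, and Abcg1 is below the nontreated arrays in all 4 stimulated groups.

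The oxysterol receptor gene Nr1h3, which encodes LXR alpha, passed in no comparison. Nr1h3 was at 6.75, 6.33 and 6.37 on the nontreated arrays, 6.18, 6.28 and 6.70 with curdlan for 2 h and 6.33, 6.31 and 6.23 with curdlan for 4 h. Nr1h3 with FK506 was at 6.27, 6.14 and 6.28 at 2 h and 6.45, 6.26 and 6.37 at 4 h. The nontreated and curdlan 2 h groups each held 1 array well above the other 2, namely the outlying arrays described above, and the SE of its differences (0.13) was the largest of the 2-group comparisons among the 30 genes. Its differences ranged from −0.26 to 0.07 over the comparisons of 2 groups.

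Abca1 encodes the pump that loads cholesterol onto lipid-poor apolipoproteins. Abca1 was at 6.03, 5.87 and 5.77 on the nontreated arrays, 6.49, 6.50 and 6.68 with curdlan for 2 h and 5.72, 5.77 and 5.69 with curdlan for 4 h. Abca1 with FK506 was at 5.68, 5.63 and 5.63 at 2 h and 5.60, 5.42 and 5.60 at 4 h. The curdlan 2 h values lay above all other arrays. Abca1 rose 1.58-fold at 2 h (0.66 ± 0.07, limma adjusted p = 1.22e-05) and was 1.88-fold lower with FK506 at that time (−0.91 ± 0.07, limma adjusted p = 2.14e-06). At 4 h the difference from nontreated cells was −0.16 ± 0.07 and that with FK506 was −0.19 ± 0.07, neither of which passed. The FK506 effect itself changed between the times, by 0.72 ± 0.10 (limma adjusted p = 0.000995), a call lost with an array covariate at 0.56.

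Abcg1 encodes the pump that passes cholesterol to HDL. Abcg1 was at 10.56, 10.48 and 10.44 on the nontreated arrays, 9.44, 9.35 and 9.75 with curdlan for 2 h and 9.58, 9.64 and 9.60 with curdlan for 4 h. Abcg1 with FK506 was at 9.80, 9.89 and 9.84 at 2 h and 9.63, 9.58 and 9.50 at 4 h. All 12 stimulated arrays lay below all 3 nontreated arrays. Abcg1 fell 1.97-fold at 2 h of curdlan (−0.98 ± 0.08, limma adjusted p = 9.18e-07) and 1.85-fold at 4 h (−0.89 ± 0.08, limma adjusted p = 9.59e-07). With FK506 it differed from curdlan by 0.33 ± 0.08 at 2 h and −0.04 ± 0.08 at 4 h, neither of which passed. Against nontreated cells it fell with curdlan and FK506 as well, by 0.65 at 2 h (limma adjusted p = 7.04e-05), lost in 2 alternative settings at −0.49 and −0.54, and by 0.93 at 4 h (limma adjusted p = 1.04e-06). Mylip, the third target of LXR on the list, had means of 7.82, 7.49, 7.49, 7.34 and 7.48 in the order used above, passed in no comparison, and was below nontreated cells in all 4 stimulated groups without overlap (−0.32 to −0.47).

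**Figure D4:**
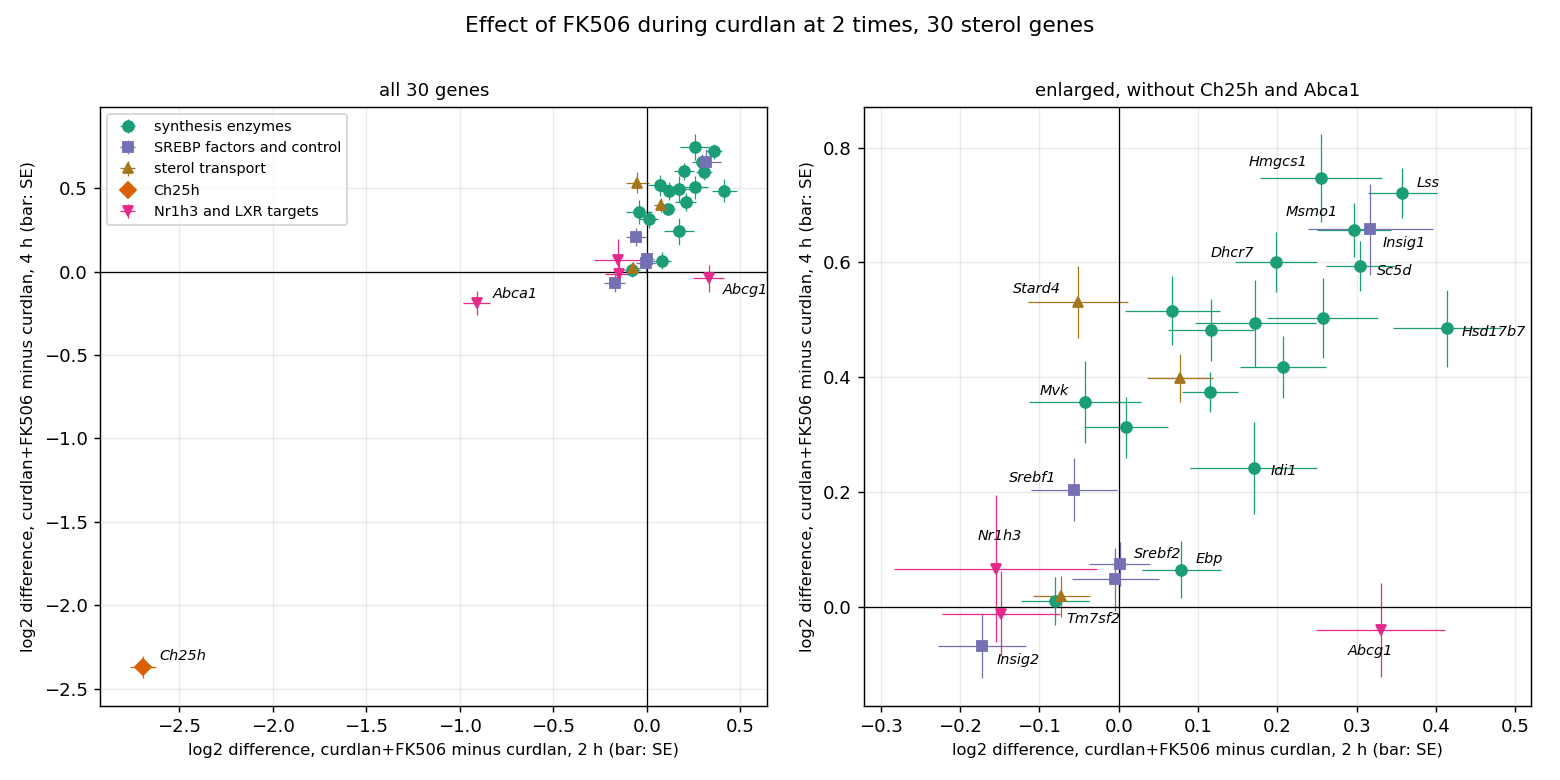
Log2 difference between curdlan with FK506 and curdlan alone at 2 h (horizontal axis) and at 4 h (vertical axis) for the 30 genes, with SE bars, coloured by role; the right panel enlarges the cluster without Ch25h and Abca1. Ch25h lies at −2.69 and −2.37, while all 17 synthesis enzymes lie above 0 at 4 h, from 0.01 (Tm7sf2) to 0.75 (Hmgcs1). Of all 19937 genes tested, 12442 were above 0 at 4 h.

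Against nontreated cells, the genes that passed with curdlan and FK506 were 4 of 30 at 2 h (Insig1, Hmgcs1 and Hsd17b7 higher, Abcg1 lower), beside 2.35% of all genes, and 3 of 30 at 4 h (Abcg1, Ch25h and Dhcr7 lower), beside 5.38%. Hmgcs1 rose 1.63-fold at 2 h (0.71 ± 0.08, limma adjusted p = 1.93e-05). The 2 h count was 3 without both outlying arrays (Hsd17b7 lost) and 2 with the array covariate (Abcg1 and Hsd17b7 lost). With arrays centred on their medians it was 3 higher and 0 lower at 2 h, and 1 higher (Idi1, at 0.66) and 3 lower at 4 h.

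Other genes of lipid handling were read from lists chosen with earlier results of these data known. Of 4 further sterol and prenyl genes analysed, 1 fell after 4 h of curdlan, Lbr (−1.02 ± 0.04), which encodes a sterol reductase of the nuclear envelope, beside 4.15% of all genes called lower. Lbr with FK506 at 4 h differed from curdlan by 0.21 and did not pass. Of 14 fatty acid genes 3 fell after 4 h of curdlan, the elongase gene Elovl6 (−1.53 ± 0.06), the desaturase gene Scd2 (−1.01 ± 0.05) and the acetyl-CoA synthetase gene Acss2 (−0.69 ± 0.04), and 0 rose, beside the same 4.15%. The list's median was −0.30. With FK506 at 4 h 0 of the 14 passed in limma, where 9 had an unadjusted p under 0.05 and 8 an adjusted p under 0.05, all 8 higher, with Scd2 at 0.51 and Acss2 at 0.40. In that comparison 1.75% of all genes were called, and 4012 of all 19937 genes had an unadjusted p under 0.05. At any fold, 1125 genes were higher with an adjusted p under 0.05.

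Of 13 genes of lipid uptake and storage, 4 rose after 4 h of curdlan and 1 fell, beside 5.05% of all genes called higher and 4.15% called lower. Among those that rose were the scavenger receptor genes Olr1 (3.46 ± 0.09) and Cd36 (1.62 ± 0.12) and the lipoprotein lipase gene Lpl (1.70 ± 0.08), and the gene that fell was Nceh1, which encodes a cholesteryl ester hydrolase (−1.42 ± 0.05). With FK506 at 4 h Olr1 (−3.09 ± 0.09), Lpl (−0.96 ± 0.08) and Cd36 (−0.64 ± 0.12) were lower and Nceh1 was higher (0.80 ± 0.05), beside 1.53% of all genes called lower and 0.211% called higher. Olr1 stood at 4.76 in nontreated cells, below the lower quartile of gene means, so its fold against them is a rough value.

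Of 8 oxysterol receptor and catabolism genes 0 passed in limma with curdlan at either time (unadjusted p under 0.05 in 4 at 2 h and 5 at 4 h). Of all genes 3.60% were called with curdlan at 2 h and 9.20% at 4 h. An unadjusted p under 0.05 was found in 5593 of all 19937 genes at 2 h and in 9650 at 4 h. Gpr183, the receptor for a dihydroxylated oxysterol made from the CH25H product, was high in nontreated cells (11.21) and differed from them by 0.33 and 0.46 with curdlan. With FK506 it was lower at 4 h (−0.62 ± 0.05), the 1 gene of the 8 that passed there, beside 1.53% of all genes called lower. At 2 h it stood at −0.57 ± 0.05, under the fold threshold. Cyp7b1, the enzyme gene of the second hydroxylation, was low in every group (4.28 to 4.51). Of 4 genes of LXR partners and coregulators 1 passed with curdlan at 4 h, the coactivator gene Ncoa1 (−0.63 ± 0.04), beside 4.15% of all genes called lower.

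Of 10 measured interferon-induced genes, 2 rose after 2 h of curdlan, Cxcl10 (2.81 ± 0.08) and Rsad2 (1.13 ± 0.11), and 1 fell, Stat2 (−0.83 ± 0.04), beside 2.20% of all genes called higher and 1.40% called lower. After 4 h 8 rose, beside 5.05% of all genes, among them Cxcl10 (3.99 ± 0.08), Rsad2 (3.60 ± 0.11) and Ifit1 (3.41 ± 0.16), and with FK506 at 4 h 8 were lower (Ifit1 −1.94 ± 0.16, Rsad2 −1.89 ± 0.11), beside 1.53% of all genes. With FK506 at 2 h 1 of 10 was lower, Cxcl10 (−0.88 ± 0.08), beside 0.762% of all genes. The part of interferon in the values of Ch25h and of the synthesis genes was not tested.

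Of the 6 macrophage markers, Mertk was lower with FK506 at 2 h (−1.53 ± 0.09) and at 4 h (−2.20 ± 0.09) and Cd14 at 4 h (−0.90 ± 0.14). Of all genes 0.762% were called lower with FK506 at 2 h and 1.53% at 4 h. With curdlan alone Cd14 was the 1 macrophage marker that rose, by 0.71 ± 0.14 at 2 h and 1.12 ± 0.14 at 4 h. Of the 10 DC markers 2 rose with curdlan for 2 h, Irf8 (1.59 ± 0.04) and Irf4 (0.87 ± 0.05), and 3 rose at 4 h, Irf8 (2.40 ± 0.04), Irf4 (1.21 ± 0.05) and Cd86 (0.65 ± 0.05). With curdlan 2.20% of all genes were called higher at 2 h and 5.05% at 4 h. The part of these markers in the results was not tested. Of the DC markers 0 passed with FK506 in limma at either time, with an unadjusted p under 0.05 in 2 at 2 h and 2 at 4 h. Among all 19937 genes 3906 had such an unadjusted p at 2 h and 4012 at 4 h, and 1.12% and 1.75% were called.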

How the data were processed

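RNA of D1 cells was hybridised to Affymetrix whole-transcript mouse arrays, 15 arrays in 5 groups of 3, each array labelled as a biological replicate of its group. The log2 values analysed were deposited by the authors after RMA with the affy package in R 2.15.2, per the labels, which corrects background, quantile normalizes and summarises probes by probe set. Quantile normalization gives the arrays nearly equal distributions (array medians 6.45 to 6.57), so the values cannot show a change common to all genes. Of 34760 probe sets, 21640 carried 1 gene symbol, 1321 several and 11799 none. Only those with 1 symbol were used, and where a gene had more than 1 of them (954 genes) its brightest on average over the arrays stood for it, leaving 19937 genes. All arrays and all low values were kept.

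limma 3.58.1 in R 4.3.3 fitted 1 mean per group to all 15 arrays (10 residual degrees of freedom), followed by eBayes. Tests were two-sided, and p was adjusted over the 19937 genes by Benjamini-Hochberg within each of 8 comparisons, of which 7 set 1 group against another and 1 set the FK506 effect at 4 h against that at 2 h. A gene passed, or was called, at an adjusted p under 0.05 with a fold of at least 1.5 (0.585 on the log2 scale). The median SE of a difference between groups was 0.0768, and the number of arrays limits the precision. The procedure was tested on simulated data with independent noise on every array, which did not include outlying arrays.

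The sterol genes and the other gene lists were chosen with earlier results of these data known. All 33 sterol genes may be named, and array values are given for those called and for Ch25h, Srebf1, Srebf2, Insig1, Abca1, Abcg1, Nr1h3 and Hmgcs1. From other lists up to 4 called genes are named, largest changes first, and members with values where none passed; Cyp7b1, Clec7a and the markers named were chosen with their values in view. Promoters were the 250 bases before each RefSeq start (GRCm38.p6), searched for the 5 motifs on both strands over 32851 entries. Of the measured sterol genes 24 matched an entry. Nothing is printed for the others (Fdft1, Sqle, Fdps, Abcg1, Stard4 and Npc1).

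Replicate numbers were not used to pair arrays. The results were recomputed under 27 alternative settings in all, 18 or 24 for any 1 comparison.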

Additional observations from a re-analysis of the deposited data

Results flagged for a closer look

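Abca1 was the only 1 of the 30 sterol genes whose FK506 effect differed between the times beyond both thresholds. The effect was −0.91 ± 0.07 at 2 h and −0.19 ± 0.07 at 4 h (log2, SE, 3 arrays per group), and the tested difference was 0.72 ± 0.10 (limma adjusted p = 0.000995). All 3 FK506 values lay below the 3 curdlan values at both times. The Abca1 means at 4 h were low, 5.73 with curdlan and 5.54 with FK506, near the lower quartile of gene means (5.28). How far low signal limited a fall with FK506 at 4 h was not tested. With the mean level of unannotated probe sets as an array covariate the difference between the times was 0.56 and under the fold threshold. The cause of this difference was not tested.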

How the results depend on the processing

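The differences of the 30 genes in 8 comparisons held 34 that passed, and these were recomputed under the alternative settings that bear on the groups compared, 18 for each comparison of 2 groups and 24 for the change of the FK506 effect. Of the 34, 27 passed under every setting run for them, 7 lost the call under some and 0 changed sign. The 7 were Mvk with curdlan for 4 h (−0.55 with arrays centred on the median, −0.58 with array weights, −0.44 with an array covariate), Srebf1 in the same comparison (−0.57 with the covariate), Sc5d with FK506 at 4 h (0.56 centred, 0.58 without curdlan 4 h replicate 3 and without FK506 4 h replicate 1), Dhcr7 in that comparison (0.57 centred, 0.56 without curdlan 4 h replicate 1, 0.58 without FK506 4 h replicate 1), Abcg1 with curdlan and FK506 for 2 h (−0.54 centred, −0.49 with the covariate), Hsd17b7 in that comparison (0.58 with array weights and with the covariate, 0.56 without nontreated replicate 1) and the Abca1 change of the FK506 effect (0.56 with the covariate). Of the 206 differences that did not pass, 9 passed under a setting that kept the fold threshold.

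Dropping the fold threshold changed every count of genes that passed. With curdlan it gave 16 at 2 h (6 higher, 10 lower) and 25 at 4 h (2 and 23), and 22 from 2 h to 4 h, all lower. Among all 19937 genes 1434 were then higher and 2570 lower at 2 h, and 2810 and 4622 at 4 h. Between the times 2465 were higher and 2726 lower. With FK506 against curdlan, dropping the threshold gave 11 sterol genes at 2 h (9 higher, 2 lower) and 19 at 4 h (18 and 1). It gave 13 for the change of that effect, all higher. Among all genes 893 were then higher and 616 lower at 2 h, and 1125 and 1202 at 4 h. For the change of the effect it was 278 and 594. With curdlan and FK506 against nontreated cells, dropping the threshold gave 18 sterol genes at 2 h (9 and 9) and 21 at 4 h (8 and 13). Among all genes 1519 were then higher and 1996 lower at 2 h, and 2053 and 3122 at 4 h. With the fold threshold kept, the count of sterol genes at 2 h in that comparison was 2 with the array covariate. The change of the FK506 effect passed in 2 genes with repeated quantile normalization, with array weights and without both outlying arrays, with Stard4 added each time. Leaving out 1 array at a time gave 3 to 4 genes for curdlan at 2 h, 7 to 8 at 4 h and 7 to 8 between the times, 2 to 2 and 5 to 7 for FK506 at 2 h and 4 h, 3 to 4 for curdlan and FK506 against nontreated cells at either time, and 1 to 2 for the change of the FK506 effect. The lowest of 5 was without FK506 4 h replicate 1, which lost Dhcr7 and Sc5d. Why a call was lost was not tested.

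Correlations gave no clear pairing of arrays by replicate number. With 3 arrays per group and 2 outlying arrays, this check cannot exclude a pairing. Over 30 pairs with the same number the deviations from the group means correlated at a median of 0.0173 (−0.727 to 0.584), 9 of 30 pairs were over 0.1, and 6 of 15 arrays correlated best with their own number. With the replicate number as a block the counts were 3, 7 and 7 for curdlan at 2 h, at 4 h and between them, 2 and 7 for FK506, 4 and 3 for curdlan and FK506 against nontreated cells, and 1 for the change of the FK506 effect, as without it. A choice of the lowest instead of the highest probe set, added after the data were seen, bears, among the 30 genes, on Idi1 and Fdft1. Of the 17 synthesis enzymes, 16 had an adjusted p under 0.05 with curdlan for 4 h (1 higher, 15 lower) and 14 with FK506 at 4 h (all higher), so the fold threshold left most of them out. Of all 19937 genes 2810 were higher and 4622 lower at that adjusted p with curdlan for 4 h. With FK506 at 4 h 1125 were higher and 1202 lower. None of the 30 genes was below the lower quartile of gene means, where signal over background would limit a value most. Abca1 (5.87) and Nr1h3 (6.35) had the lowest means of the 30, both below the median of gene means (6.76), so their values may be limited as well.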
